A study of Mus musculus with 6 samples.

Results

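The transcription factors described here are 43 genes that pattern the hypothalamus or mark its neuron types: LIM, NK, sine oculis, TALE, POU and CUT homeodomain proteins, zinc finger, helix-loop-helix and forkhead proteins, and some others. They were taken by symbol from the 47480 genes of the deposited table, and each had 1 row. Their RNA was sequenced from tissue cut out by laser from female mice that all carried VgluT2-cre, in which the promoter of a glutamate transporter drives the recombinase, and the Ai6 fluorescent reporter. VMHpvlm and VMHpvll, neighbouring areas of the ventrolateral ventromedial hypothalamus (VMH), had 3 libraries each, and the question was how their transcription differs. The sources used here give neither age nor pooling of animals nor how the borders were drawn, and captured tissue holds every cell type within the border. The titles share the beginnings F19, F20 and KH_161103 between the regions, and libraries were paired by these names, in which order all library values below are given. Levels are normalised read counts, that is, read counts divided by 1 size factor per library, means are given ± SD over 3 libraries per region, and log2 differences are VMHpvlm minus VMHpvll on log2(count + 1).

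Patterning factors divide the embryonic hypothalamus into zones, and many stay on in the adult, where a combination of them marks a neuron type. Some are known from particular neighbours of the VMH: Otp and Sim1 are needed for neurons of the paraventricular and supraoptic nuclei, Isl1 and Tbx3 for arcuate neurons, and Lhx6 marks neurons of the zona incerta. Others, such as Nfia, Nfib, Rax and Lhx2, also act in astrocytes, in tanycytes or in their progenitors. A level in captured tissue therefore sums over cell types, and fewer cells of a type and less RNA per cell cannot be told apart.

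Most of the factors that differed were higher in VMHpvll. Of the 43, 33 reached a 6-library mean of 10, the level from which genes were tested, and 16 of the 33 (48.5%) were called at a limma adjusted p below 0.05, against 20% of all tested genes. Higher in VMHpvlm were 4 of 33, against 10.5% of all tested genes, and higher in VMHpvll were 12 of 33, against 9.48%. The members were picked with earlier results of these data known, so these shares describe the set. The 16 called factors had the same sign in 3 of 3 pairs, and the values of the regions did not overlap for 15 of the 33, against 28.0% of all tested genes. The median absolute log2 difference of the 33 was 0.33, against 0.15 over all tested genes, and their median signed difference was -0.20 (VMHpvlm minus VMHpvll), against 0.002. All 16 calls fell among the 24 factors with a mean of at least 50, which is 66.7% of them against 23.3% of all genes at that level. Of the 9 tested factors with a mean under 50, limma called 0, with 0 at an unadjusted p below 0.05, and edgeR and DESeq2 called 0 as well.

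**Figure D1:**
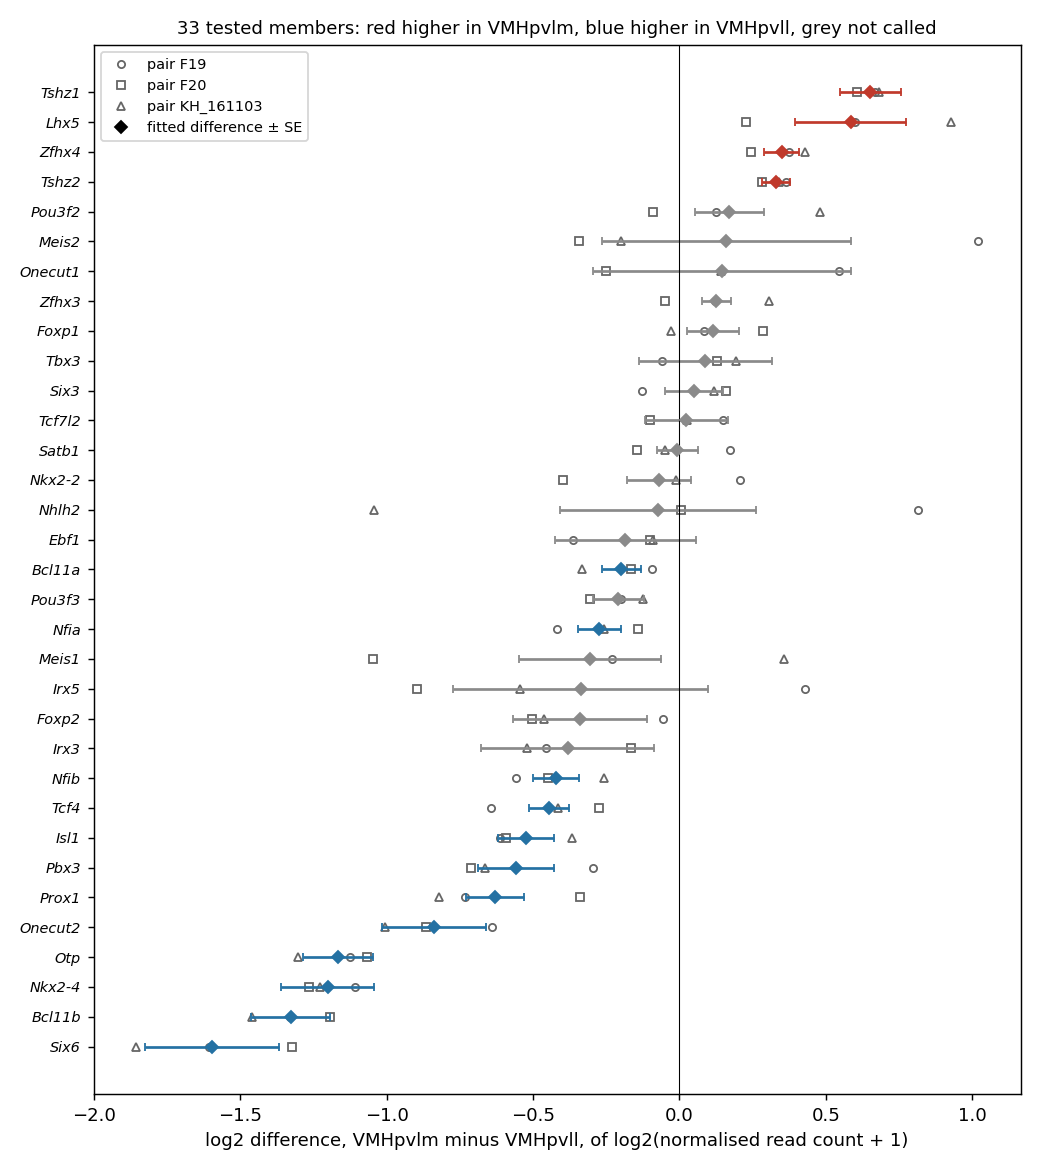
Fitted log2 difference of log2(normalised read count + 1), VMHpvlm minus VMHpvll, with its standard error (diamonds and bars) and the difference within each pair of libraries (open symbols) for the 33 tested factors. The 4 red factors were higher in VMHpvlm, the 12 blue ones were higher in VMHpvll, and the 17 grey ones were not called and ranged from -0.38 to 0.17.

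The 4 factors with the largest differences among the 33 were Six6, Bcl11b, Nkx2-4 and Otp, each more than 2-fold higher in VMHpvll. The DNA just before the start of these genes is shown because they differed most, with that of Tshz2, the called factor with the highest level, which was higher in VMHpvlm. The sequences are from RefSeq (GRCm38.p6, the assembly also called mm10), cut to the bases that precede both the RefSeq start and the GENCODE gene, and written 5′ to 3′ on the strand of the gene. Capitals mark matches to the E-box CANNTG, bound by helix-loop-helix proteins, or to TGACAG, bound by TALE proteins.
Six6, chr12:72939632-72939881, plus strand: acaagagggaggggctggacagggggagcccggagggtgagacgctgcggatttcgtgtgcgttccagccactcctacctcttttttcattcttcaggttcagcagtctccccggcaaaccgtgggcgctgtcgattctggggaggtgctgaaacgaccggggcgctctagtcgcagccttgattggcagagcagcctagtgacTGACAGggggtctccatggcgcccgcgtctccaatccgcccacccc
Bcl11b, chr12:108003603-108003664, minus strand: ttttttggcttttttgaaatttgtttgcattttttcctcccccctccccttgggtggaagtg
Nkx2-4, chr2:147085446-147085595, minus strand: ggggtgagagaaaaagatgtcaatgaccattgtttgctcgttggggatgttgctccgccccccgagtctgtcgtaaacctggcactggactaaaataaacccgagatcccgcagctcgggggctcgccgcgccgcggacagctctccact
Otp, chr13:94875386-94875601, plus strand: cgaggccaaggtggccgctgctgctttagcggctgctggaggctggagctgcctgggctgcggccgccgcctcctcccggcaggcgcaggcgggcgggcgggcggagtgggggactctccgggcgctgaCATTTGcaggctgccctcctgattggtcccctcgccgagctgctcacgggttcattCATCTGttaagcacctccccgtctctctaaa
Tshz2, chr2:169632259-169632508, plus strand: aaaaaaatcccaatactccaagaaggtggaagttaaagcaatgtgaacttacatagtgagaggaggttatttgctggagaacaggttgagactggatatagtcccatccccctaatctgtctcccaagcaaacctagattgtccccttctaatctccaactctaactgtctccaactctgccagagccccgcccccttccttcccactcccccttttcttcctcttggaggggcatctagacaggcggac

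In these windows Otp has 2 E-boxes and Six6 has 1 TGACAG. The homeodomain core TAATTA and the oestrogen response element were not found in any of the 5 windows on either strand. RefSeq listed windows of 250 bases before to 50 after the start for 32 of the 43 factors, 45 windows in all. An E-box was in 48.9% of the factors' windows and in 72.3% of all 32851 windows, TGACAG in 22.2% against 19.2%, TAATTA in 2.2% against 5.3%, and the oestrogen response element in 0 of 45 against 0.1%. The 9 windows of the 8 called factors higher in VMHpvll that RefSeq listed had a median GC content of 62.8% in their 250 upstream bases, against 56.4% in the windows of factors that were not called, 58.0% over all windows of the set and 52.4% over all windows listed.

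Among the NK, sine oculis and related homeodomain factors, 0 of 6 tested were higher in VMHpvlm and 4 were higher in VMHpvll, against 10.5% and 9.48% of all tested genes. Six6, which is needed for the eye, the pituitary and the suprachiasmatic nucleus, had 27.1, 29.1 and 18.2 in VMHpvlm, against 84.6, 74.5 and 68.5 in VMHpvll. The regions did not overlap, and Six6 was 3.06-fold higher in VMHpvll (log2 difference -1.60 ± 0.23 SE, limma adjusted p = 4.18e-07). Its close relative Six3, a forebrain and eye factor, had 251, 258 and 274 in VMHpvlm, against 274, 231 and 253 in VMHpvll. These ranges overlapped, and Six3 was not called (log2 difference 0.05 ± 0.10 SE, limma adjusted p = 0.795). Within each library, the ratio of Six6 to Six3 counts was 0.108, 0.113 and 0.0662 in VMHpvlm and 0.309, 0.323 and 0.271 in VMHpvll. The ratio separated the regions, with an exact two-sided permutation p of 0.1, the smallest that 3 against 3 libraries can give. As Six6 was called without overlap and Six3 was not called, this ratio repeats the difference of Six6 and is no further test.

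Nkx2-4, a relative of the hypothalamic factor Nkx2-1, had 59.6, 58.3 and 59.0 in VMHpvlm, against 129.7, 142 and 139.7 in VMHpvll. The VMHpvlm values were close to each other, all under the VMHpvll values, and Nkx2-4 was 2.32-fold higher in VMHpvll (log2 difference -1.20 ± 0.16 SE, limma adjusted p = 7.16e-08). Nkx2-2, a ventral patterning factor of brain and spinal cord, lies 92.1 kb from it on chromosome 2. It had 222, 247 and 212 in VMHpvlm, against 192, 326 and 214 in VMHpvll, with the F20 library of VMHpvll above the other 5, and was not called (log2 difference -0.07 ± 0.11 SE, limma adjusted p = 0.739). The ratio of Nkx2-4 to Nkx2-2 was 0.261 ± 0.0219 in VMHpvlm and 0.586 ± 0.133 in VMHpvll (SD, n = 3 each, exact two-sided permutation p = 0.1). Prox1, known from lymphatic vessels and from neural progenitors, had 225, 259.6 and 206 in VMHpvlm, against 374, 329 and 365 in VMHpvll. The regions did not overlap, and Prox1 was 1.55-fold higher in VMHpvll (log2 difference -0.63 ± 0.10 SE, limma adjusted p = 2.40e-06).

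Otp, a homeodomain factor needed for neurons that make oxytocin, vasopressin and other releasing peptides, had 123, 109.7 and 99.9 in VMHpvlm, against 270.4, 231 and 248 in VMHpvll. It was 2.25-fold higher in VMHpvll, with no overlap (log2 difference -1.17 ± 0.12 SE, limma adjusted p = 1.51e-10). Sim1, its partner in the development of those neurons, was too low to be tested, with 4, 0 and 0 reads in VMHpvlm, against 9, 13 and 19 in VMHpvll. The regions did not overlap for Sim1, and in the fit without a filter on low values it was called higher in VMHpvll (log2 difference -3.10 ± 0.60 SE, limma adjusted p = 6.75e-06). The pair differences of Sim1 were -0.76, -4.35 and -4.20, a wider spread than this standard error implies. That fit took the standard error largely from other genes, so its p-value does not measure the spread of Sim1 itself. Oxytocin and vasopressin themselves were near or at 0 in VMHpvlm. Oxt had 0, 0 and 0.908 in VMHpvlm, against 30.8, 40.2 and 33.8 in VMHpvll, and Avp had 0, 0 and 0 in VMHpvlm, against 34.1, 20.9 and 6.39 in VMHpvll. Of 4 markers of the paraventricular and supraoptic nuclei, Crh was called higher in VMHpvlm, Oxt and Avp were called higher in VMHpvll, and Trh, with 52.8, 34.7 and 15.4 in VMHpvlm, against 118, 110.2 and 212 in VMHpvll, was not called (limma adjusted p = 0.228). Crh, Oxt and Avp reached the mean of 10 needed for testing only through the region where each was higher. The summed level of the 4 markers ranged from 28.2 to 78.6 in VMHpvlm and from 177 to 256 in VMHpvll. Trh, which was not called, was the largest part in every VMHpvll library. The part of this summed level in the differences of Otp and Sim1 was not tested. Pou3f2, which also acts in paraventricular and supraoptic neurons, had 187, 185 and 214 in VMHpvlm, against 172, 197 and 153 in VMHpvll and was not called (log2 difference 0.17 ± 0.12 SE, limma adjusted p = 0.364).

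**Figure D2:**
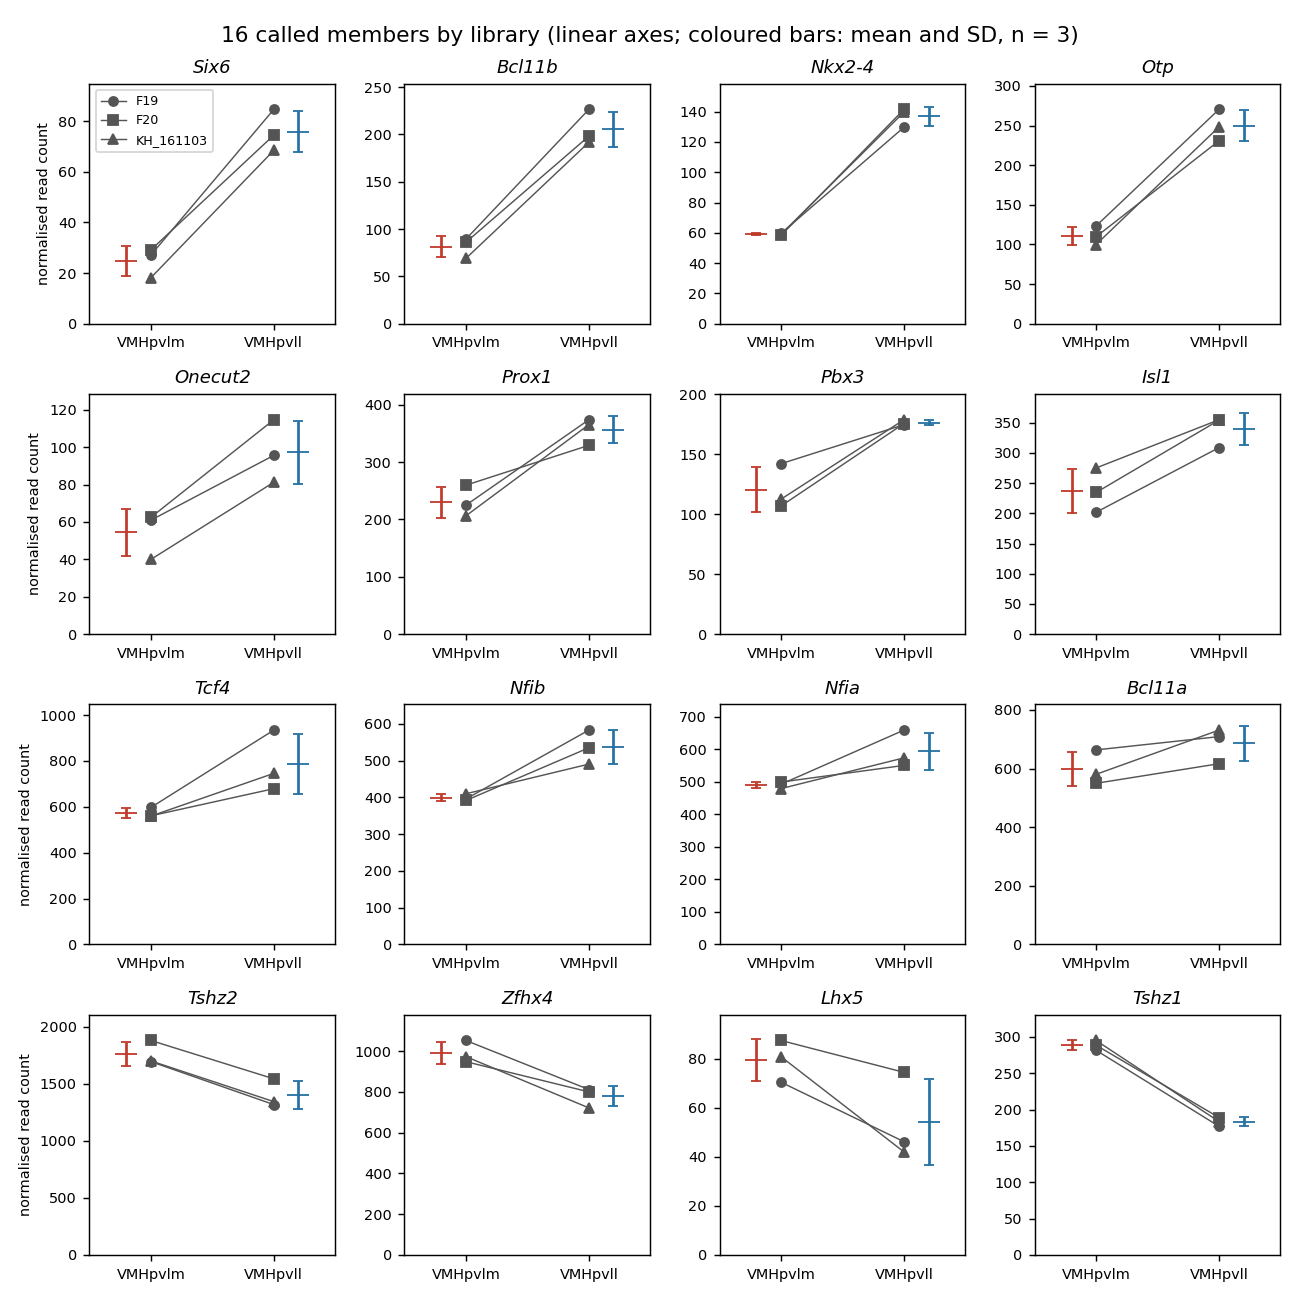
Normalised read counts of the 16 called factors in each library, 1 panel per gene with a linear axis that starts at 0. Lines join libraries of the same name and coloured bars give the mean and SD of 3 libraries. The 12 factors in the upper rows were lower in VMHpvlm in 3 of 3 pairs and the 4 in the bottom row were higher in VMHpvlm in 3 of 3 pairs.

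The C2H2 zinc finger factors were called in 4 of 4 cases, against 20% of all tested genes. Both Tshz factors were higher in VMHpvlm and both Bcl11 factors in VMHpvll, of which Bcl11a lost its call in 6 of 13 alternatives. Bcl11b, also called Ctip2 and known from deep-layer cortical and striatal neurons, had 89.4, 86.1 and 69.0 in VMHpvlm, against 226, 198 and 192 in VMHpvll. It was 2.52-fold higher in VMHpvll, with no overlap (log2 difference -1.33 ± 0.14 SE, limma adjusted p = 1.06e-10). Its relative Bcl11a had 664, 549.7 and 580.4 in VMHpvlm, against 709, 617 and 731 in VMHpvll, so the regions overlapped. Bcl11a was called at 1.15-fold (log2 difference -0.20 ± 0.07 SE, limma adjusted p = 0.0302). It was not called without the KH_161103 pair (log2 difference -0.13, limma adjusted p = 0.405), without the replicate block by pair (adjusted p = 0.166) or with libraries scaled to the same total (-0.17, adjusted p = 0.0672). Bcl11a was also not called by DESeq2 (adjusted p = 0.326) or by limma with no filter on low values (adjusted p = 0.0526) or without trend and robust settings (adjusted p = 0.262). The ratio of Bcl11b to Bcl11a was 0.137 ± 0.0189 in VMHpvlm and 0.301 ± 0.0336 in VMHpvll (SD, n = 3 each, exact two-sided permutation p = 0.1).

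Tshz1, a teashirt factor known from olfactory interneurons, had 282, 289 and 295 in VMHpvlm, against 177, 189 and 184 in VMHpvll. The 3 VMHpvlm libraries were close to each other, above every VMHpvll library, and Tshz1 was 1.57-fold higher in VMHpvlm (log2 difference 0.65 ± 0.10 SE, limma adjusted p = 2.93e-06). Tshz2, with the highest level per length of the 43 in both regions, had 1694, 1879 and 1700.0 in VMHpvlm, against 1317, 1543 and 1343 in VMHpvll. It was 1.25-fold higher in VMHpvlm, without overlap (log2 difference 0.33 ± 0.05 SE, limma adjusted p = 4.95e-07). Exons of Tshz2 share 5076 bases with the antisense gene Gm26883, which had a mean of 10.6 over the 6 libraries, and the use of strand in counting is not stated.

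The LIM homeodomain factors, which mark and specify neuron types across the forebrain, were mostly at very low levels: 5 of 7 had a mean under 10. Isl1 had 202, 235 and 275 in VMHpvlm, against 309, 354 and 355 in VMHpvll. It was 1.43-fold higher in VMHpvll, and the regions did not overlap (log2 difference -0.52 ± 0.10 SE, limma adjusted p = 3.53e-05). Lhx5, a forebrain factor known from the mammillary region, had 70.4, 87.5 and 80.8 in VMHpvlm, against 46.2, 74.5 and 42.0 in VMHpvll. Its F20 library of VMHpvll lay within the range of VMHpvlm, and Lhx5 was called 1.47-fold higher in VMHpvlm (log2 difference 0.58 ± 0.19 SE, limma adjusted p = 0.0229). Lhx5 was not called without the F19 pair (log2 difference 0.58, limma adjusted p = 0.0799), without the KH_161103 pair (0.41, adjusted p = 0.305) or without the replicate block by pair (adjusted p = 0.092). Lhx1, a factor of the suprachiasmatic nucleus, had 0, 0 and 0 reads in VMHpvlm, against 0, 0 and 2 in VMHpvll. Lhx6 had 1, 0 and 0 reads in VMHpvlm, against 1, 0 and 1 in VMHpvll, and Lhx8, known from cholinergic forebrain neurons, had 0, 1 and 0 reads in VMHpvlm, against 1, 0 and 0 in VMHpvll. Lhx2 had 4, 10 and 9 reads in VMHpvlm, against 15, 5 and 9 in VMHpvll, and Lhx9, known from orexin neurons, had 1, 3 and 0 reads in VMHpvlm, against 10, 2 and 2 in VMHpvll. The libraries hold 7157831 to 11293159 reads, and at this depth no difference in Lhx1, Lhx6 or Lhx8 was detectable.

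Of the CUT, POU and zinc finger homeodomain factors, 2 of 7 (28.6%) were called, against 20% of all tested genes. The largest mean count of the set was that of Zfhx3. Zfhx3, known from the suprachiasmatic clock, had 3190.0, 3462 and 3497 in VMHpvlm, against 2933, 3582 and 2826 in VMHpvll. The ranges overlapped and Zfhx3 was not called (log2 difference 0.13 ± 0.05 SE, limma adjusted p = 0.0739). Without the F20 pair, the one in which VMHpvlm was lower, it was called higher in VMHpvlm (log2 difference 0.21, limma adjusted p = 5.61e-05), and likewise with libraries scaled to the same total (0.15, adjusted p = 0.0103) and with no filter on low values (adjusted p = 0.0138). Without the KH_161103 pair the log2 difference of Zfhx3 fell to 0.04 (limma adjusted p = 0.778). Zfhx3 was also not called without the replicate block by pair (limma adjusted p = 0.384) or by DESeq2 (adjusted p = 0.418). Zfhx4 had 1052, 948 and 973 in VMHpvlm, against 811, 799.7 and 721 in VMHpvll. It was 1.27-fold higher in VMHpvlm, without overlap (log2 difference 0.35 ± 0.06 SE, limma adjusted p = 9.62e-06). Onecut2, of a CUT family known from retina, liver and motor neurons, had 61.0, 62.5 and 40.0 in VMHpvlm, against 95.6, 115 and 81.2 in VMHpvll. It was 1.78-fold higher in VMHpvll (log2 difference -0.84 ± 0.18 SE, limma adjusted p = 3.52e-04), and its range did not overlap that of VMHpvlm. Onecut1 was far lower in reads, averaging 11.4 ± 3.37 in VMHpvlm and 10.2 ± 3.06 in VMHpvll, with no call (log2 difference 0.15 ± 0.44 SE, limma adjusted p = 0.876). Pou3f3 had 326, 309.5 and 314 in VMHpvlm, against 375, 383 and 342 in VMHpvll: the regions did not overlap, but it was not called (log2 difference -0.21 ± 0.09 SE, limma adjusted p = 0.0867). Satb1, a chromatin organiser, averaged 580.2 ± 50.5 in VMHpvlm and 582 ± 18.1 in VMHpvll and had a log2 difference of -0.01 (limma adjusted p = 0.965).

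Of the TALE factors, which bind DNA together with other homeodomain proteins, 1 of 5 was called, against 20% of all tested genes. Pbx3 had 142, 107 and 113 in VMHpvlm, against 175, 176 and 179 in VMHpvll. It was 1.46-fold higher in VMHpvll and did not overlap (log2 difference -0.56 ± 0.13 SE, limma adjusted p = 0.00112). Meis1 averaged 39.2 ± 6.33 in VMHpvlm and 50.1 ± 16.6 in VMHpvll (limma adjusted p = 0.435), and Meis2 averaged 12.6 ± 1.10 in VMHpvlm and 12.3 ± 6.29 in VMHpvll (limma adjusted p = 0.854). The Iroquois factors Irx3 and Irx5, whose genes lie 556 kb apart on chromosome 8, averaged 21.6 ± 5.33 in VMHpvlm and 28.0 ± 2.80 in VMHpvll for Irx3 (adjusted p = 0.424) and 9.87 ± 2.05 in VMHpvlm and 13.0 ± 3.85 in VMHpvll for Irx5 (adjusted p = 0.666). With means under 50, differences such as the -0.38 ± 0.30 of Irx3 had standard errors of 0.24 to 0.44 in these 4 genes.

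Tcf4, Nfib and Nfia were higher in VMHpvll. Tcf4, a widely expressed helix-loop-helix E-protein, averaged 572 ± 21.5 in VMHpvlm and 786 ± 132 in VMHpvll, 1.37-fold higher in VMHpvll (log2 difference -0.45 ± 0.07 SE, limma adjusted p = 1.79e-06). Nfib averaged 399 ± 9.55 in VMHpvlm and 536 ± 46.2 in VMHpvll (1.34-fold, log2 difference -0.42 ± 0.08 SE, limma adjusted p = 4.31e-05) and Nfia averaged 491 ± 10.3 in VMHpvlm and 595 ± 57.1 in VMHpvll (1.21-fold, log2 difference -0.27 ± 0.07 SE, limma adjusted p = 0.00439). The regions did not overlap for these 3 genes, and Nfia was not called without the F19 pair (limma adjusted p = 0.126) or the KH_161103 pair (adjusted p = 0.0538). Both nuclear factor I proteins are also known as drivers of astrocyte formation. Astrocyte markers numbered 8, of which 0 were called higher in VMHpvlm and 4 in VMHpvll, with a summed level of 8253 to 9294 in VMHpvlm and 9366.5 to 10299 in VMHpvll and none at 0. The 4 were Gfap, which averaged 246 ± 41.6 in VMHpvlm and 544 ± 142 in VMHpvll (limma adjusted p = 1.86e-04), Aqp4, which averaged 659.9 ± 42.1 in VMHpvlm and 878 ± 39.9 in VMHpvll (adjusted p = 2.25e-06), Agt and Sox9, while Gja1, Aldh1l1, Slc1a3 and Fgfr3 were not called. For oligodendrocytes, 0 of 8 markers were called higher in VMHpvlm and 7 in VMHpvll, with sums of 11268 to 12877 in VMHpvlm and 15252 to 16297.5 in VMHpvll. For vessels, 0 of 8 were called higher in VMHpvlm and 6 in VMHpvll, with sums of 1568 to 1827 in VMHpvlm and 2325 to 2570.1 in VMHpvll. Their part in the differences of Tcf4, Nfia, Nfib and Prox1 was not tested.

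The other factors were not called or lay under the level tested. Foxp1 averaged 344 ± 11.8 in VMHpvlm and 318 ± 29.2 in VMHpvll and Foxp2 had 52.8, 33.3 and 30.9 in VMHpvlm, against 55.0, 47.7 and 42.9 in VMHpvll (limma adjusted p = 0.426 for Foxp1 and 0.341 for Foxp2). Tcf7l2, which acts in Wnt signalling, averaged 119 ± 5.41 in VMHpvlm and 117 ± 5.90 in VMHpvll (adjusted p = 0.938), and the arcuate factor Tbx3 averaged 44.8 ± 9.43 in VMHpvlm and 41.9 ± 7.79 in VMHpvll (adjusted p = 0.849). Ebf1, a factor of B cells and of some neurons, averaged 35.5 ± 6.96 in VMHpvlm and 41.2 ± 13.0 in VMHpvll (adjusted p = 0.672). Nhlh2, linked to body weight and fertility in mice, had 29.8, 19.4 and 15.4 in VMHpvlm, against 16.5, 19.4 and 32.9 in VMHpvll, with pair differences of 0.82, 0.01 and -1.04 (adjusted p = 0.92). Hmx2 and Hmx3, whose genes are 3.85 kb apart on chromosome 7, were also untested: Hmx2 had 10 reads in VMHpvlm and 12 in VMHpvll, and Hmx3 had 10 in VMHpvlm and 26 in VMHpvll, summed over libraries. Rax, the defining factor of tanycytes, had 0, 1 and 0 reads in VMHpvlm, against 1, 3 and 1 in VMHpvll, and Ebf3 had 3, 3 and 11 reads in VMHpvlm, against 7, 0 and 9 in VMHpvll. Of 8 tanycyte and ependymal markers, Rax included, 6 were tested, of which 0 were higher in VMHpvlm and 2, Nes and Col23a1, in VMHpvll, with sums of 339 to 444 in VMHpvlm and 551 to 777 in VMHpvll. Vim and Nes were the largest parts of the sum in every VMHpvll library. Vim, Foxj1, Crym and Dio2 were not called, the last 3 with log2 differences of -0.12, -0.17 and 0.04.

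**Figure D3:**
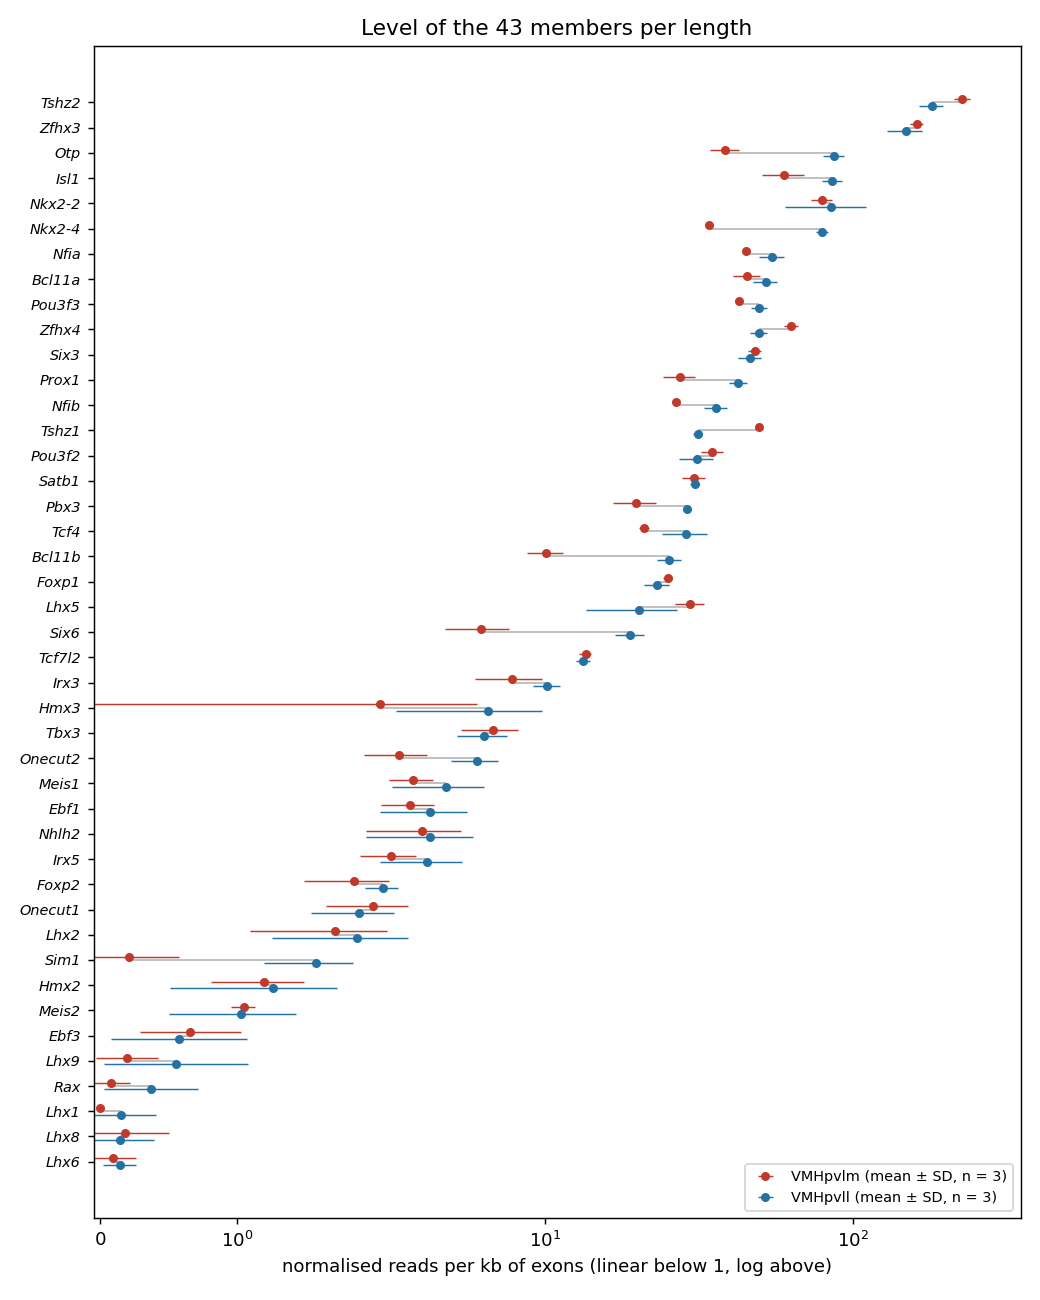
Mean and SD (n = 3 libraries) of normalised reads per kb of GENCODE exons for the 43 factors in each region, ordered by VMHpvll, on an axis that is linear below 1 and logarithmic above, with SD bars drawn only from 0 up. Tshz2 and Zfhx3 are highest in both regions, and Otp and Nkx2-4 stand among the 6 highest in VMHpvll only.

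On a scale per length, the set spanned a wide range and its order differed between the regions. Reads per kb of exons of Tshz2 were 226 ± 13.5 in VMHpvlm and 180.1 ± 15.9 in VMHpvll, and those of Zfhx3 were 161 ± 8.01 in VMHpvlm and 148 ± 19.5 in VMHpvll. These factors were first and second in both regions. Otp was number 11 in VMHpvlm and the third in VMHpvll, with reads per kb of 38.5 ± 4.07 in VMHpvlm and 86.7 ± 6.88 in VMHpvll. Nkx2-4 was number 13 in VMHpvlm and number 6 in VMHpvll, with reads per kb of 34.2 ± 0.377 in VMHpvlm and 79.4 ± 3.67 in VMHpvll. In VMHpvll the levels per kb of Otp, Isl1, Nkx2-2 and Nkx2-4 lay between 79.4 and 86.7, within the SD of Nkx2-2 (24.9). Exon lengths are those of GENCODE M21, and the sources used here do not give the annotation behind the deposited counts.

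Relatives within the set were also compared as ratios of their counts. Of 11 ratios between relatives, taken within each library, 6 separated the regions: Nkx2-4 to Nkx2-2, Six6 to Six3, Pou3f3 to Pou3f2, Onecut2 to Onecut1, Bcl11b to Bcl11a and Tshz1 to Tshz2. Each of the 6 had an exact two-sided permutation p of 0.1, the smallest possible here, and 0.183 after Benjamini-Hochberg adjustment over the 11. The permutation did not use the pairing by name. Except for Pou3f3 to Pou3f2, each of the 6 includes a called factor, so its separation is no further test. The ratio of Onecut2 to Onecut1 was 4.87 ± 0.767 in VMHpvlm and 9.78 ± 1.29 in VMHpvll (SD, n = 3 each). Pou3f3 to Pou3f2 was 1.63 ± 0.146 in VMHpvlm and 2.12 ± 0.153 in VMHpvll. The other 5 ratios overlapped, among them Nfib to Nfia at 0.813 ± 0.0367 in VMHpvlm and 0.902 ± 0.0606 in VMHpvll.

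Relatives of the 43 factors differed about as often as genes in general. Of 58 further members of the same families, 35 were tested and 8 (22.9%) were called, 3 higher in VMHpvlm and 5 in VMHpvll, against 20% of all tested genes. Nkx2-9 averaged 13.2 ± 2.83 in VMHpvlm and 51.3 ± 6.15 in VMHpvll, higher in VMHpvll (limma adjusted p = 1.75e-06). Pbx2, a relative of Pbx3, and Lef1, a relative of Tcf7l2, were also higher in VMHpvll, with log2 differences of -0.43 and -0.74, and so was Nfix with -0.22. Vax1 averaged 29.5 ± 6.16 in VMHpvlm and 14.4 ± 4.58 in VMHpvll (adjusted p = 0.025), higher in VMHpvlm, as were Cux2 (0.36) and Nkx2-1 (0.22). Calls of Pbx2 and Cux2 were lost without the F19 pair, those of Vax1 and Cux2 without the KH_161103 pair, and those of Lef1, Nfix and Nkx2-1 without either one of these pairs. Without the KH_161103 pair, the log2 difference of Vax1 was 0.59 (adjusted p = 0.418).

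Other regional factors of the hypothalamus and forebrain pointed more often toward VMHpvlm. Of 52 listed, 31 were tested and 17 (54.8%) were called, against 20% of all tested genes. Of the 17, 13 were higher in VMHpvlm and 4 in VMHpvll, against 10.5% and 9.48% of all tested genes. Nr5a1, Fezf1 and Sox14 of this list are also counted among the VMH neuron markers below. The 4 were Dlx1, Dlx2, Dlx6 and Lmo2. Dlx1, which with Dlx2 and Dlx6 specifies GABAergic neurons of the forebrain, averaged 22.4 ± 5.22 in VMHpvlm and 65.3 ± 11.0 in VMHpvll (log2 difference -1.52, limma adjusted p = 4.50e-06), and Dlx2, Dlx6 and Lmo2 had log2 differences of -1.46, -2.48 and -0.95. Toward VMHpvlm, Lmo3, Nr5a1 and Fezf1 had log2 differences of 2.05, 3.27 and 0.89. Sox1 averaged 361 ± 27.8 in VMHpvlm and 183 ± 11.3 in VMHpvll and Nr0b1, a partner of the VMH factor Nr5a1, averaged 51.8 ± 11.9 in VMHpvlm and 3.45 ± 3.09 in VMHpvll. Dlx2, Dlx6 and Nr0b1 reached the mean of 10 needed for testing only through the region where each was higher. The 3 GABAergic markers Slc32a1, Gad1 and Gad2 were called higher in VMHpvll, with sums of 798 to 1054 in VMHpvlm and 1991 to 2306 in VMHpvll. Their part in the differences of Six6, Bcl11b, Isl1 and the other factors higher in VMHpvll was not tested.

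**Figure D4:**
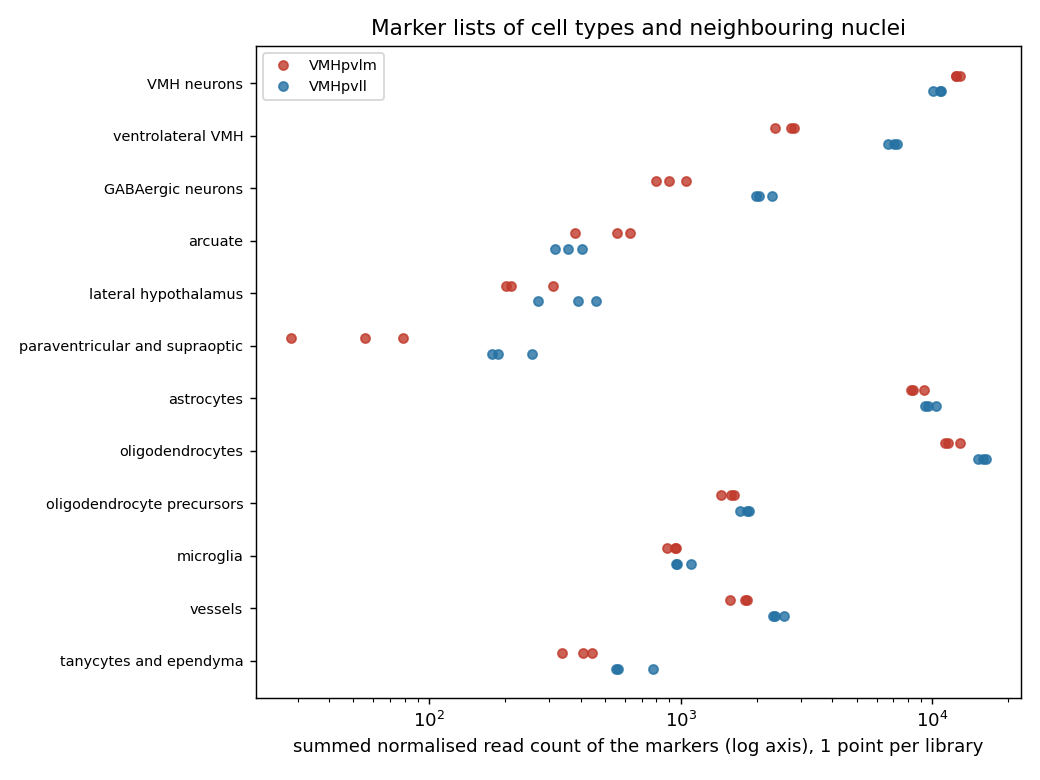
Summed normalised read count of the marker genes of each cell type or neighbouring nucleus on a log axis, with 1 point per library. The sums of the paraventricular and supraoptic, GABAergic, ventrolateral VMH, astrocyte, oligodendrocyte, oligodendrocyte precursor, vascular, and tanycyte and ependymal markers were lower in VMHpvlm without overlap, and those of the VMH neuron markers were higher in VMHpvlm without overlap.

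Markers of the labelled tissue were present in every library. Of 7 VMH neuron markers, 6 were called higher in VMHpvlm, with sums of 12406.5 to 12929.6 in VMHpvlm and 10097 to 10778 in VMHpvll. Of 6 markers of its ventrolateral part, 5 were called higher in VMHpvll, with sums of 2364 to 2814.5 in VMHpvlm and 6670.4 to 7244 in VMHpvll. Of 8 arcuate markers, Kiss1 was at 0 in all libraries, 2 were higher in VMHpvlm (Pomc and Npy) and 2 in VMHpvll (Th and Ghrh), with sums of 382 to 626 in VMHpvlm and 315 to 403 in VMHpvll. Npy reached the mean of 10 needed for testing only through VMHpvlm. Of the arcuate factors of the set, Isl1 was called with a log2 difference of -0.52, and Tbx3 was not called at 0.09 ± 0.23 SE. Of 3 lateral hypothalamic markers, Nts was higher in VMHpvll and Hcrt, which was not tested, averaged 0.451 ± 0.782 in VMHpvlm and 11.6 ± 10.9 in VMHpvll, and the sums were 202.5 to 309.5 in VMHpvlm and 271.5 to 459 in VMHpvll. Of 4 oligodendrocyte precursor markers, 3 were called higher in VMHpvll, with sums of 1445 to 1621 in VMHpvlm and 1721 to 1869 in VMHpvll. The 6 microglial markers summed to 882 to 958 in VMHpvlm and 954 to 1095 in VMHpvll.

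Exons of 17 of the 43 factors overlap exons of another gene in GENCODE, so part of their reads may be uncertain. Six3 shares 106 exon bases with Six3os1, which averaged 95.5 ± 9.49 in VMHpvlm and 97.4 ± 19.5 in VMHpvll, with no call (limma adjusted p = 0.971). Six6 shares 192 bases with 4930447C04Rik, which had a mean of 48.5 over the 6 libraries and was not called (log2 difference 0.09, limma adjusted p = 0.842). The antisense transcripts Nkx2-2os, Tbx3os1, Prox1os and Irx3os had means of 0.823 to 5.88 over the 6 libraries. On mm10, Six6 spans 72939892 to 72944899 on chromosome 12, plus strand, and Bcl11b spans 107910403 to 108003602 on the minus strand of the same chromosome. Nkx2-4 spans 147083316 to 147085445 and Nkx2-2 147177546 to 147194243 on chromosome 2, both on the minus strand, and Tshz2 spans 169633013 to 170071816 on its plus strand. Otp spans 94875602 to 94885130 on the plus strand of chromosome 13. GENCODE lists all 6 as protein-coding genes.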

How the data were processed

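Total RNA was extracted from laser-captured tissue of frozen coronal brain sections with a PicoPure kit and made into libraries with a SMARTer Stranded Total RNA-Seq kit, per the labels' protocols. HISAT2, featureCounts and the mm10 build are named in the submitters' processing notes, and the sources used here do not give the annotation, the use of strand or the scaling tool. The deposited signal values are counts that the authors divided by 1 size factor per library: each value came back as a whole read within 0.05 reads, with 7157831 to 11293159 reads per library. The table has 47480 genes, of which 27 have names turned into dates and 2 symbols occur more than once.

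The 14522 genes whose 6-library mean reached 10 were tested with limma 3.58.1 in R 4.3.3 on log2(value + 1), with region and pair as terms and eBayes with trend and robust settings. The fit has 2 residual degrees of freedom and a median of 39.9 prior degrees of freedom. Its standard errors and p-values therefore rest largely on the spread of other genes, and do not measure the spread of each gene alone. For Zfhx3, for example, the pair differences were 0.121, -0.049 and 0.307, beside a standard error of 0.049. P-values were adjusted by Benjamini-Hochberg over all tested genes and called below 0.05. Libraries were paired because their titles share names. Deviations from the region means correlated at 0.244 to 0.363 between libraries of the same name and at -0.247 to 0.007 between others. The 3 deviations in a region sum to 0, so positive correlations within names push those between names down, and this contrast is partly built in. No title states that libraries of 1 name came from 1 animal. Where they did not come from separate animals, the spread behind the p-values is only that between libraries, which may be technical. Libraries of 1 region differed by a chi-square of 5.54 to 9.83 per degree of freedom, more than sampling noise.

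All 43 factors are named. Every library is given for called factors with an absolute log2 difference of at least 0.5 and for the 3 with the highest mean, region means for the other called ones, and up to 5 called genes per direction for each further list. Of the genes that this rule names, 1 is not reported here. The 11 ratios and some other values shown per library were chosen after values were seen. The members, lists and markers were chosen with earlier results of these data known. Positions and exon lengths are from GENCODE M21 and promoters from RefSeq. Among 13 alternatives were edgeR 4.0.16 (TMM) and DESeq2 1.42.0 on recovered reads.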

Additional observations from a re-analysis of the deposited data

How the results depend on the processing

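No called factor changed direction in any of the 13 alternatives, and 6 of 16 (Bcl11b, Nkx2-4, Onecut2, Otp, Six6 and Tshz1) kept their call in each. Without trend and robust settings in limma, 1 factor was called higher in VMHpvlm and 5 in VMHpvll, and 422 of all genes, against 2905. All genes called numbered 1800 with no replicate block and 1230 by DESeq2. Leaving out 1 pair gave 1773 (without KH_161103) to 2872 (without F20) genes, and 3 to 5 factors higher in VMHpvlm and 10 to 12 in VMHpvll. With no replicate block 3 and 11 factors were called, the calls of Lhx5 and Bcl11a being lost, edgeR called 4 and 12, and DESeq2 called 3 and 9, losing Lhx5, Pbx3, Nfia and Bcl11a. Among factors that were not called, some signs turned when 1 pair was left out: the log2 difference then ran from -0.206 to 0.097 for Nkx2-2, from -0.005 to 0.139 for Six3, from -0.639 to 0.064 for Meis1, from -0.271 to 0.412 for Meis2, from -0.053 to 0.345 for Onecut1, from -0.097 to 0.062 for Satb1, from -0.038 to 0.086 for Tcf7l2 and from -0.519 to 0.411 for Nhlh2. With libraries scaled to the same total Satb1 was at 0.016, and the median of all genes moved by 0.02. The causes were not tested. Depth limits the 10 untested factors, of which Lhx1, Lhx6 and Lhx8 had at most 2 reads summed over a region.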
